A study of Homo sapiens with 12 samples.

Results

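The HOX cluster genes are the protein-coding homeobox genes whose symbols are HOXA, HOXB, HOXC or HOXD followed by a paralog number from 1 to 13. This rule, which uses gene names and no measured value, gave 39 genes of the 65969 gene identifiers in the count table. They lie in 4 clusters on chromosomes 7 (HOXA, 11 genes), 17 (HOXB, 10 genes), 12 (HOXC, 9 genes) and 2 (HOXD, 9 genes). RNA was profiled from embryoid bodies, aggregates in which human embryonic stem cells differentiate, in 12 libraries from the established embryonic stem cell lines H1 and MEL1. Both lines had been transduced with lentiviral SMARTvector constructs that express a short hairpin RNA when doxycycline is given, and had been selected with puromycin. The hairpins KD1, KD2 and KD3 target METTL14, a subunit of the enzyme complex that writes m6A on RNA, and SCR is the control hairpin. H1 gave 2 libraries with each of SCR, KD1, KD2 and KD3, and MEL1 gave 1 with SCR, 2 with KD1 and 1 with KD2. Every group, SCR included, was seeded at 500 cells per microwell, received 2 µg/ml doxycycline and was harvested at day 10. Each group is thus a selected pool of transduced cells. Replicate numbers below only name the libraries. The labels do not say whether libraries of a group came from separate cultures, so p-values measure the spread between these libraries, which may be technical.

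HOX proteins are transcription factors that give cells along the head-to-tail axis their regional identity. In the embryo the genes of a cluster are switched on in order, from the low-numbered anterior paralogs at one end to the high-numbered posterior paralogs at the other, and the hindbrain and spinal cord are patterned by their combined expression. The forebrain and midbrain form without HOX expression, Polycomb proteins keep the clusters silent in pluripotent cells, and retinoic acid, Wnt and FGF signals with the CDX factors open them. Here paralogs 1 to 3 are called anterior, 4 to 8 central and 9 to 13 posterior.

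The HOX genes were nearly silent in all 12 libraries. Of the 39 genes, 13 had a count of 0 in every library, 11 were above 0 in 1 library and 15 in 2 or more. No gene exceeded 12 estimated counts in any library, and 26 stayed at 3 counts or fewer throughout. Of the 468 values (39 genes in 12 libraries), 393 were 0, which is 84.0%. All HOX genes over all libraries summed to 241 of 460523656 counts. The genes at 0 everywhere were HOXA3, HOXA4, HOXA9, HOXA10, HOXC5, HOXC6, HOXC8, HOXC9, HOXC11, HOXC12, HOXD4, HOXD11 and HOXD12. A count of 0 over all 12 libraries allows a level of up to 0.00651 counts per 1000000 counts of the library (CPM), taking 3 counts as the limit, and in single libraries this limit lay between 0.0690 and 0.188 CPM. These limits cover counting error only and take each count as a separate fragment. In RNA from whole aggregates, few cells with HOX RNA and little HOX RNA per cell cannot be told apart.

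**Figure D1:**
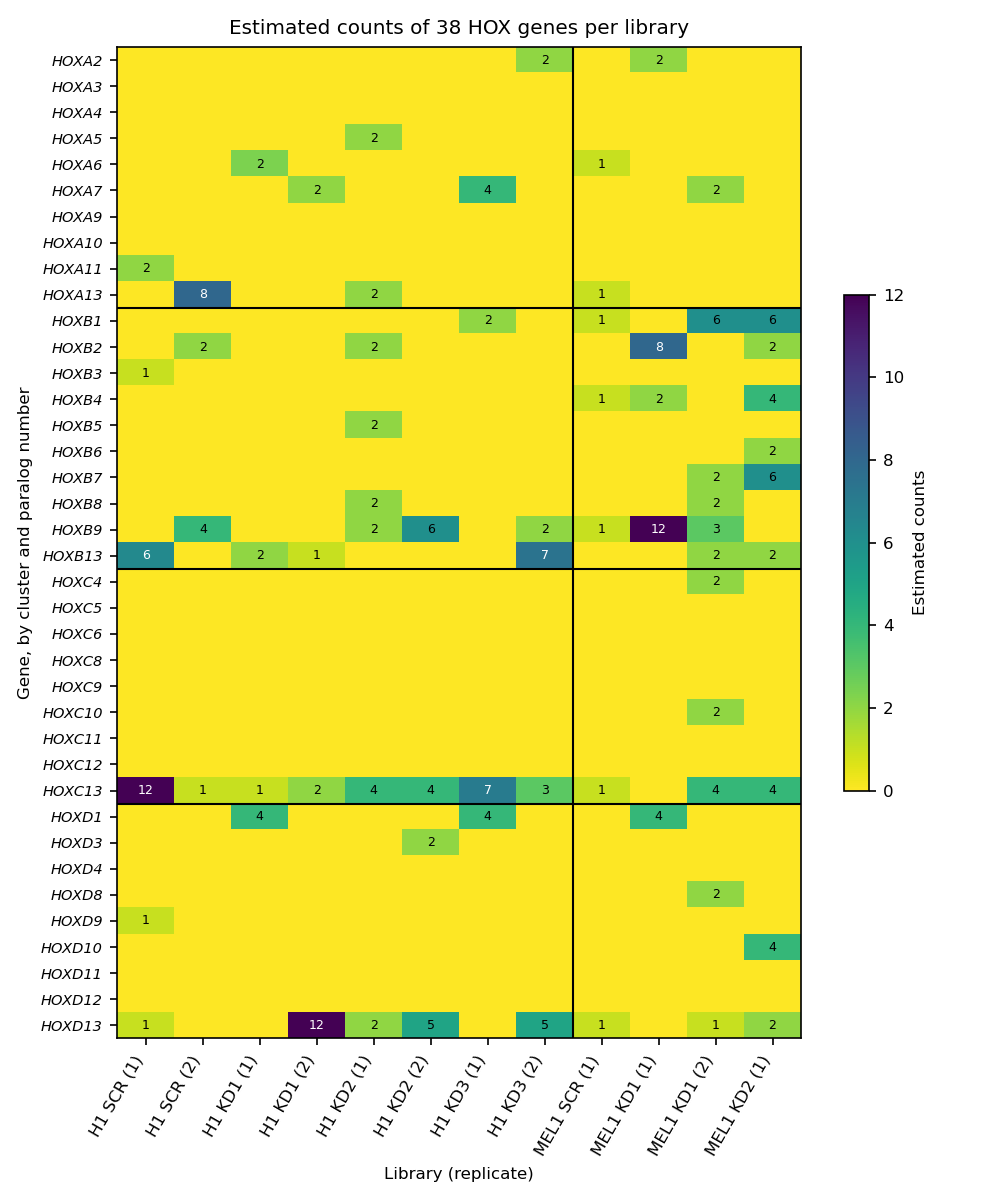
Estimated counts of 38 HOX genes (rows, grouped by cluster and ordered by paralog number) in the 12 libraries (columns, H1 left and MEL1 right). Printed numbers are counts above 0, rounded; most cells are empty, and the highest value, 12, occurs in HOXB9, HOXC13 and HOXD13 in 1 library each.

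All 4 clusters were close to silent. HOXB held 103.8 counts over all libraries and had no gene at 0 throughout. HOXD held 50 counts with 3 of 9 genes at 0, HOXC 47 counts with 6 of 9 at 0, and HOXA 40.4 counts with 4 of 11 at 0. By paralog group, group 13 held 104 counts, group 1 held 37, group 9 held 31, and group 12 held 0. The posterior genes as a class held 143 counts with 7 of 16 genes at 0, the anterior genes 58 with 1 of 8, and the central genes 40.4 with 5 of 15. HOXB9, HOXB13, HOXC13 and HOXD13 together held 50.9% of all HOX counts.

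The HOX genes with the most counts were posterior. HOXC13, the most 5′ gene of its cluster, known for its role in hair and nails, had counts of 12 and 1 with SCR in H1, 1 and 2 with KD1, 4 and 4 with KD2, and 7 and 3 with KD3. In MEL1 HOXC13 had 1 with SCR, 0 and 4 with KD1 and 4 with KD2. It was above 0 in 11 libraries, and the SCR libraries of H1 held both its highest value and one of its lowest. HOXD13, a gene of digit and genital development, had 1 and 0 counts with SCR in H1, 0 and 12 with KD1, 2 and 5 with KD2 and 0 and 5 with KD3. In MEL1 HOXD13 had 1 with SCR, 0 and 1 with KD1 and 2 with KD2. Replicates of H1 KD1 were thus as far apart as any 2 libraries. HOXB9, a thoracic-level gene, had 0 and 4 counts with SCR in H1, 0 and 0 with KD1, 2 and 6 with KD2 and 0 and 2 with KD3. In MEL1 HOXB9 had 1 with SCR, 12 and 3 with KD1 and 0 with KD2. HOXB13, which acts in prostate and tail-end tissues, reached 7.45 counts in H1 KD3 replicate 2 and 6.35 in H1 SCR replicate 1, with at most 2 in the other libraries. In each of these genes the SCR and knockdown values overlapped.

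Among the remaining genes, 1 or 2 libraries usually carried the total. HOXA13, a limb and hindgut gene, had 8 counts in H1 SCR replicate 2, 2 in H1 KD2 replicate 1, 1 in MEL1 SCR and 0 in the other libraries. HOXB1, which marks rhombomere 4 of the hindbrain, had 6 counts in MEL1 KD1 replicate 2, 6 in MEL1 KD2, 1 in MEL1 SCR, 2 in H1 KD3 replicate 1 and 0 elsewhere. HOXB2, another hindbrain gene, had 8 counts in MEL1 KD1 replicate 1 and at most 2 in any other library. HOXB7, a trunk-level gene, was above 0 only in MEL1, with 6 counts with KD2 and 2 in KD1 replicate 2. HOXD1 had 4 counts in each of H1 KD1 replicate 1, H1 KD3 replicate 1 and MEL1 KD1 replicate 1, and 0 in the other libraries. HOXA7 had 4 counts in H1 KD3 replicate 1 and 2 in each of H1 KD1 replicate 2 and MEL1 KD1 replicate 2. HOXD10 had 4 counts in MEL1 KD2 and 0 in the other libraries, and HOXC4 and HOXC10 had 2 each in MEL1 KD1 replicate 2. No group had the same one of these genes above 3 counts in both of its libraries.

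Low counts in these libraries were mostly even numbers, which bears on how few fragments the HOX values stand for. Among values from 1 to 8 over all genes, 61.5% to 87.4% were even in 11 libraries and 41.7% in MEL1 SCR. Of the 64 whole HOX values above 0 in the 11 libraries, 52 were even, whereas the 7 HOX values above 0 in MEL1 SCR were all 1. Whether 2 counts stand for 1 fragment was not tested. If they do, the limits for counts of 0 above are too low. The binomial intervals given below for these 11 libraries would be too narrow. The median summed HOX level over the 12 libraries was 0.464 CPM. Halving the HOX counts of the 11 libraries, with library totals kept, makes it 0.232 CPM. Halving the totals too would leave CPM unchanged.

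Summed over all 39 genes, the HOX level was low in every group. From here on CPM values carry edgeR's TMM scaling factors, which even out differences in library composition. In H1 the summed level was 0.640 and 0.362 CPM with SCR, 0.278 and 0.398 with KD1, 0.385 and 0.392 with KD2, and 0.456 and 0.471 with KD3. In MEL1 it was 0.477 CPM with SCR, 0.716 and 0.861 with KD1 and 0.809 with KD2. The 6 H1 knockdown libraries, at 0.397 ± 0.0683 CPM (SD, n = 6), overlapped the range of the H1 SCR libraries, at 0.501 ± 0.196 CPM (SD, n = 2). The 3 MEL1 knockdown libraries lay above the other 9, at 0.795 ± 0.0734 CPM (SD, n = 3), and MEL1 SCR lay within the H1 range. Halving the HOX counts of the other 11 libraries, with their totals kept, puts MEL1 SCR highest of the 12. It stays at 0.477 CPM, above 0.358, 0.430 and 0.405 CPM in the MEL1 knockdown libraries. That setting lowers the 11 libraries by construction, and with the totals halved too the order would not change. It cannot show whether the order depends on how fragments were counted. MEL1 SCR rests on 7 counts, and its exact binomial interval (95%) of 0.176 to 0.903 CPM before TMM scaling overlapped those of all MEL1 knockdown libraries. MEL1 SCR was also the library of lowest depth, at 15963241 counts against 36609628 to 43508287 in the others, and the part of depth in its value was not tested.

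**Figure D2:**
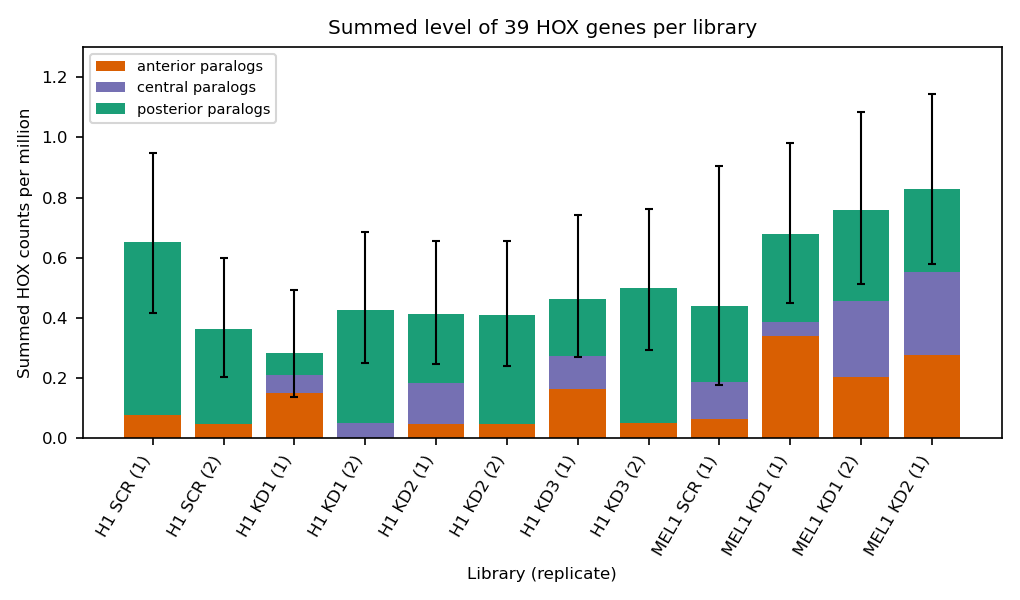
Summed CPM of the 39 HOX genes (bars, before TMM scaling) in each library, split into anterior, central and posterior paralogs. Lines are exact 95% binomial intervals of the rounded sum, which take each count as a separate fragment. The 3 MEL1 knockdown bars, 0.679 to 0.827 CPM, are the highest, and the intervals of neighbouring bars overlap. Those of MEL1 KD2 (from 0.580 CPM) and MEL1 KD1 replicate 2 (from 0.512) lie above that of H1 KD1 replicate 1 (up to 0.493).

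The balance of anterior and posterior paralogs did not separate the lines beyond the spread of their libraries. Posterior genes held between 26.4% and 89.7% of the HOX counts in H1 libraries, with a median of 87.4%. In MEL1 they held between 33.3% and 57.1%, with a median of 41.4%. The ranges of the lines overlapped, and replicates of 1 group could stand at opposite ends: H1 KD1 replicate 1 is the library at 26.4%, and replicate 2 had 88.2%. Over all 12 libraries the median posterior share was 56.3% by counts and 37.9% once counts were divided by transcript length. The anterior class had 0.286 ± 0.0657 CPM (SD, n = 3) in MEL1 knockdown libraries, 0.0681 CPM in MEL1 SCR and 0.0752 ± 0.0655 CPM (SD, n = 6) in H1 knockdown libraries. These anterior counts in MEL1 came chiefly from HOXB1 and HOXB2, with different genes leading in different libraries. By line, 13 genes were above 0 in both, 6 only in H1 and 7 only in MEL1, out of 8 and 4 libraries. Those only in H1 had at most 2 counts in a library, and those only in MEL1 at most 6 (HOXB7). The share of all genes seen in 1 line only was not computed, so the split does not mark line-specific HOX genes.

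The HOX genes were tested for differences with edgeR's quasi-likelihood test over all 24898 genes that passed its filter on low counts, and a gene was called at a Benjamini-Hochberg adjusted p under 0.05. HOXB9, HOXC13 and HOXD13 passed the filter, each through the 1 library where it had 12 counts, and the other 36 HOX genes did not. The 3 were thus picked by their own highest library, and their tests say nothing of the other 36. Over both lines, none of the 3 was called for knockdown against SCR, where 0.213% of all tested genes were called. None was called in the H1 average of the hairpins against SCR (background 7.16%), in KD1 (11.1%), KD2 (1.54%) or KD3 (2.98%) against SCR, or between the hairpins (3.54%). None was called between MEL1 and H1 at matched treatments (49.1%), or for a KD1 and KD2 effect that differed between the lines (0.598%). For HOXB9 neither of these comparisons between lines could show a difference. Its H1 KD1 and MEL1 KD2 groups were at 0, and the standard errors were 925 and 199 in log2. The lowest unadjusted p of the 24 edgeR tests was 0.154 and the lowest adjusted p was 0.369, both for HOXB9 in H1 KD1. In DESeq2 the lowest unadjusted p was 0.248, so none of the 3 had an unadjusted p under 0.05 with either tool.

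The standard errors were wide at such counts. HOXD13 had a log2 fold change of 3.21 in H1 KD1 against SCR with a standard error of 2.13 (adjusted p 0.377, edgeR). HOXB9 had -4.01 in the same comparison with a standard error of 2.60 (adjusted p 0.369). HOXC13 had -0.73 over both lines with a standard error of 0.91 (adjusted p 0.748). With no filter, 26 HOX genes were tested and none was called, and 2 had an unadjusted p under 0.05. In that setting 80 of 40154 genes were called over both lines and 12775 in MEL1 against H1. An unadjusted p under 0.05 was reached by 4398 and 14826 genes. For some HOX genes at 0 in whole groups the fit gave no usable estimate. In the H1 average HOXB6, at 0 in all H1 libraries, had a log2 fold change of 0, and HOXA5, at 0 in SCR, a standard error of 4122. HOXA13 had a log2 fold change of -3.51 over both lines (SE 1.36, unadjusted p 0.0160, adjusted p 0.315, edgeR), which rests on the 8 counts of 1 H1 SCR library. HOXB1 had 4.88 in MEL1 against H1 (SE 2.04, unadjusted p 0.0169, adjusted p 0.0529, edgeR), from at most 6 counts a library.

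HOX levels were also set beside those of gene families with no known role in these cells, chosen after the HOX values were seen. Of 381 olfactory receptor genes, which encode odorant sensors of the nose, 60.9% were at 0 in all libraries and 81.4% of values were 0. Of 94 keratin-associated protein genes, which form hair, 74.5% were at 0 in all libraries and 94.8% of values were 0. Of the HOX genes fewer were at 0 throughout, at 33.3%, while their share of values at 0, 84.0%, lay between those of the families. Over all 19916 protein-coding genes, 6.56% were at 0 in all libraries, the median total over the 12 libraries was 4954 counts against 2 for HOX genes, and 81.9% had a total above that of the highest HOX gene.

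Apart from 1 miRNA record in HOXC described last, no gene record inside the clusters exceeded 12 counts in a library, and most of the neighbours outside were expressed. Positions are from GENCODE release 29 on GRCh38. HOXB spans chromosome 17 from 48528526 to 48729178, HOXC chromosome 12 from 53938765 to 54056030 and HOXD chromosome 2 from 176092891 to 176190907. The 16 listed antisense and long noncoding RNA genes of the clusters, such as HOTAIR, HOTTIP and HOTAIRM1, had at most 4 counts in a library, and 7 of them were at 0 throughout. Of the 16 nearest protein-coding neighbours, 2 on each side of each cluster, 13 had a mean of at least 1 CPM. Next to HOXC, CBX5, the gene of the heterochromatin protein HP1 alpha, had 543 ± 52.9 CPM (SD, n = 8) in H1 and 302 ± 51.1 CPM (SD, n = 4) in MEL1. Next to HOXD, MTX2, a mitochondrial import gene, had 38.3 ± 6.02 CPM (SD, n = 8) in H1 and 42.8 ± 9.28 CPM (SD, n = 4) in MEL1. EVX1 and EVX2, homeobox genes that adjoin HOXA and HOXD and share their regulation, were low like the clusters, with at most 20 and 4 counts. SKAP1, beside HOXB, was low as well, with at most 15 counts.

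**Figure D3:**
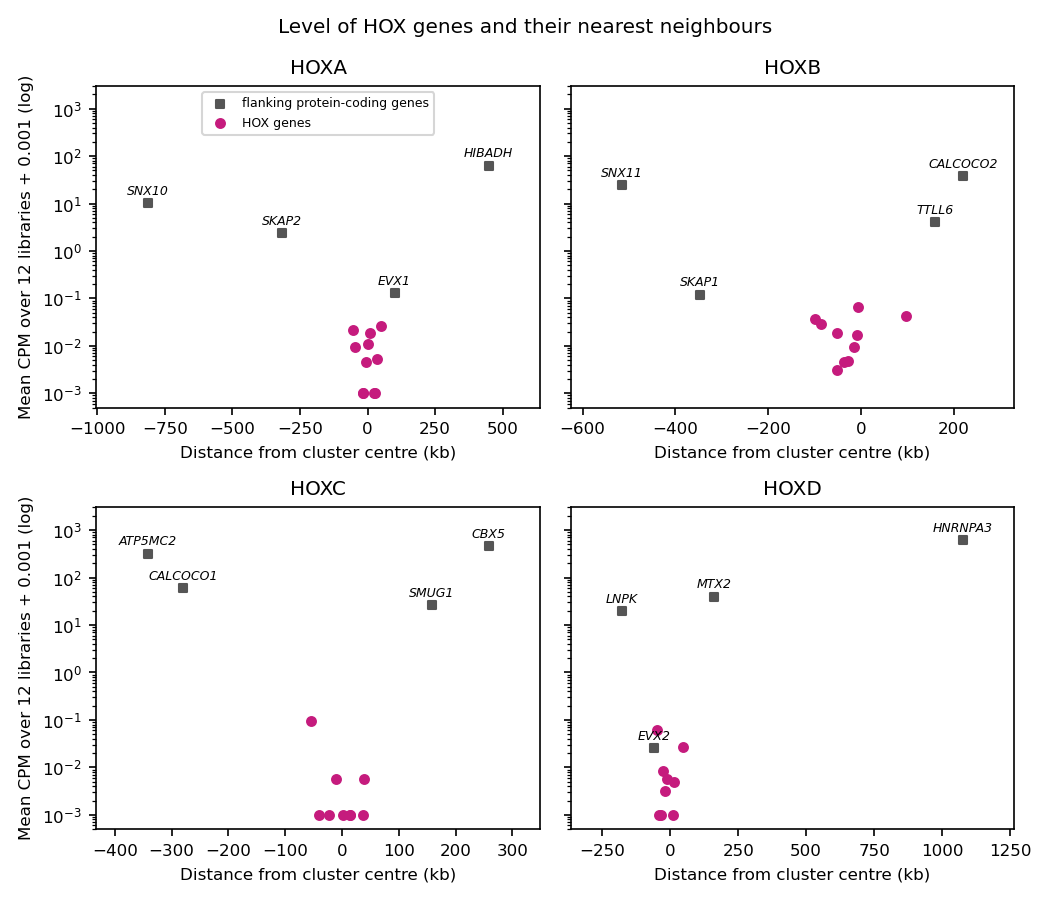
Mean CPM over 12 libraries, plus 0.001 and on a log axis, of HOX genes (circles) and the 2 nearest protein-coding genes on each side (squares), against the distance in kb from the centre of each cluster. HOX genes lie below 0.1 CPM in all 4 panels, and 13 of the 16 neighbours lie above 1 CPM.

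Promoter sequences of 20 of the 39 genes were found in RefSeq (GRCh38.p14), as 26 distinct windows of 250 bases before to 50 after the start. Their median number of CpG dinucleotides, the sites of DNA methylation, was 22.5 (range 0 to 44), against 14 over 35116 windows of 27305 genes. A posterior and an anterior example are shown for this contrast, each as the 250 bases before the start with CpG in capitals: HOXD13 on the plus strand at chr2:176092471-176092720, with 21 CpG, and HOXB1 on the minus strand at chr17:48531012-48531261, with 7.
HOXD13: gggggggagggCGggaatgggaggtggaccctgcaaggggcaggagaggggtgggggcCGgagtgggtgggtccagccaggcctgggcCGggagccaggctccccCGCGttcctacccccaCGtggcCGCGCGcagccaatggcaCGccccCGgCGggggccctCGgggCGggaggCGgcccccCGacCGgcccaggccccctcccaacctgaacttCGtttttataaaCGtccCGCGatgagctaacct
HOXB1: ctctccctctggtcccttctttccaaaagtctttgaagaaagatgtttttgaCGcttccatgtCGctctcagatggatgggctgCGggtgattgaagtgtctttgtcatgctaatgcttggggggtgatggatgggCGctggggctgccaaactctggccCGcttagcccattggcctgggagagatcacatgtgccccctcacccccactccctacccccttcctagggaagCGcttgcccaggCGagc
The letters TGATNNAT, a form of the site bound by PBX and HOX proteins together, were found on either strand in 3 of the 26 windows (HOXA2, HOXB1 and HOXD11, 11.5%), against 7.40% of all windows. TATAAA was found in 5 windows (HOXA10, HOXA3, HOXA9 and HOXD13, 19.2%), against 11.5%. A match describes the sequence and does not show that a factor binds it. HOXD13 and HOXB1 were close to silent alike, at 29 and 15 counts over the 12 libraries.

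The partners and regulators of HOX genes were expressed in the same libraries, from lists chosen with earlier results of these data known. HOX proteins bind DNA with cofactors of the PBX, MEIS and PKNOX families, and all 9 on the list had a mean of at least 1 CPM. None of the 9 was called over both lines. In the H1 average PBX2 and MEIS1 rose and no cofactor fell, where 2.23% of all tested genes were called higher and 4.93% lower. The median log2 change of the cofactors was 0.05, against 0.01 over all tested genes. PBX2 had 30.9 and 28.7 CPM with SCR and 39.2 to 61.7 CPM with the hairpins, a log2 fold change of 0.78 (standard error 0.12, edgeR adjusted p 0.00711). MEIS1 had 14.5 and 13.3 CPM with SCR and 17.6 to 31.3 CPM with the hairpins, a log2 fold change of 0.76 (standard error 0.16, edgeR adjusted p 0.0211). Without H1 SCR replicate 2 both lost their calls (adjusted p 0.101 for PBX2 and up to 0.164 for MEIS1), and MEIS1 lost it without replicate 1 too. Between the lines 3 cofactors were higher and 4 lower in MEL1, where 23.0% and 26.2% of all tested genes were called so. Among them was MEIS1 at 1.69 ± 0.790 CPM (SD, n = 4) against 21.4 ± 6.84 CPM (SD, n = 8), a log2 fold change of -3.62 (standard error 0.17, edgeR adjusted p 2.48e-08).

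The genes that open the clusters in the embryo ranged from near silent to well expressed. Of 10 listed, 5 had a mean of at least 1 CPM, the highest being GDF11, a tail bud signal, at 86.8 CPM, and none was called over both lines. In the H1 average 1 rose and 2 fell (background 2.23% and 4.93%), with a median log2 change of -0.46, against 0.01 over all tested genes. CDX1, CDX2 and CDX4, the caudal-type factors that activate trunk HOX genes, stayed at or below 0.846 CPM in all libraries, and TBXT, which marks the primitive streak and tail bud, at or below 1.16 CPM. FGF8, a signal of the tail bud and of the midbrain-hindbrain boundary, had 13.6 and 12.4 CPM in H1 SCR, 15.4 and 14.3 with KD1, 45.5 and 40.4 with KD2, and 43.2 and 35.2 with KD3. Its H1 average was higher by 1.17 in log2 (standard error 0.14, edgeR adjusted p 0.00236), and FGF8 differed between the hairpins (adjusted p 0.00220). GBX2, which sets the anterior hindbrain against the midbrain, had 41.4 and 36.3 CPM in H1 SCR, 17.8 and 16.9 with KD1, 12.3 and 11.2 with KD2, and 37.5 and 29.2 with KD3. Its H1 average fell by 1.03 in log2 (standard error 0.12, edgeR adjusted p 0.00214). WNT3A, a posterior Wnt ligand, had 11.3 and 8.07 CPM in H1 SCR and 3.15 to 7.87 CPM with the hairpins, and its H1 average fell by 1.06 (standard error 0.20, edgeR adjusted p 0.0139). That call for WNT3A was lost without H1 SCR replicate 1 (adjusted p 0.103). FGF8 and GBX2 kept theirs in all 19 other settings.

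In the retinoic acid pathway, whose signal activates anterior HOX genes, 15 of 18 genes had a mean of at least 1 CPM. None was called over both lines, and 3 rose and 3 fell in the H1 average (background 2.23% and 4.93%), with a median log2 change of 0.30, against 0.01 over all tested genes. CRABP2, a carrier of retinoic acid, had 419 ± 50.7 CPM (SD, n = 8) in H1 and 586 ± 162 CPM (SD, n = 4) in MEL1. ALDH1A3, which makes retinoic acid, had 8.63 and 7.18 CPM in H1 SCR and 35.0 and 36.2 with KD2, and in the H1 average it rose by 1.20 in log2 (standard error 0.18, edgeR adjusted p 0.00520; 0.0870 without H1 SCR replicate 2). CYP26A1, which degrades retinoic acid, had 13.8 ± 1.64 CPM (SD, n = 2) in H1 SCR and 34.9 and 41.1 with KD1, a log2 fold change of 1.46 (standard error 0.30, edgeR adjusted p 0.0176), lost without either KD1 library or without H1 SCR replicate 2. All 17 Polycomb and Trithorax genes, which silence and activate the clusters, had a mean of at least 1 CPM. Their median log2 change in the H1 average was 0.17. None of them was called over both lines, and KDM6B, a demethylase that removes the Polycomb mark, was the 1 called in the H1 average, with a log2 fold change of 0.70 (standard error 0.16, edgeR adjusted p 0.0308; up to 0.234 without H1 SCR replicate 2, either KD1 library or KD3 replicate 1). By single hairpin, 3 of the 17 rose and 2 fell in H1 KD1 against SCR, where 11.1% of all tested genes were called. None of the 17 was called in H1 KD2 (background 1.54%) or KD3 (2.98%) against SCR. Between the lines 4 of the 17 were higher and 3 lower in MEL1, where 23.0% and 26.2% of all tested genes were called so. Their median log2 change was -0.12, against -0.09 over all tested genes. Among the higher was PHC1, a Polycomb subunit, by a log2 of 2.18 (standard error 0.08, edgeR adjusted p 6.66e-09).

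**Figure D4:**
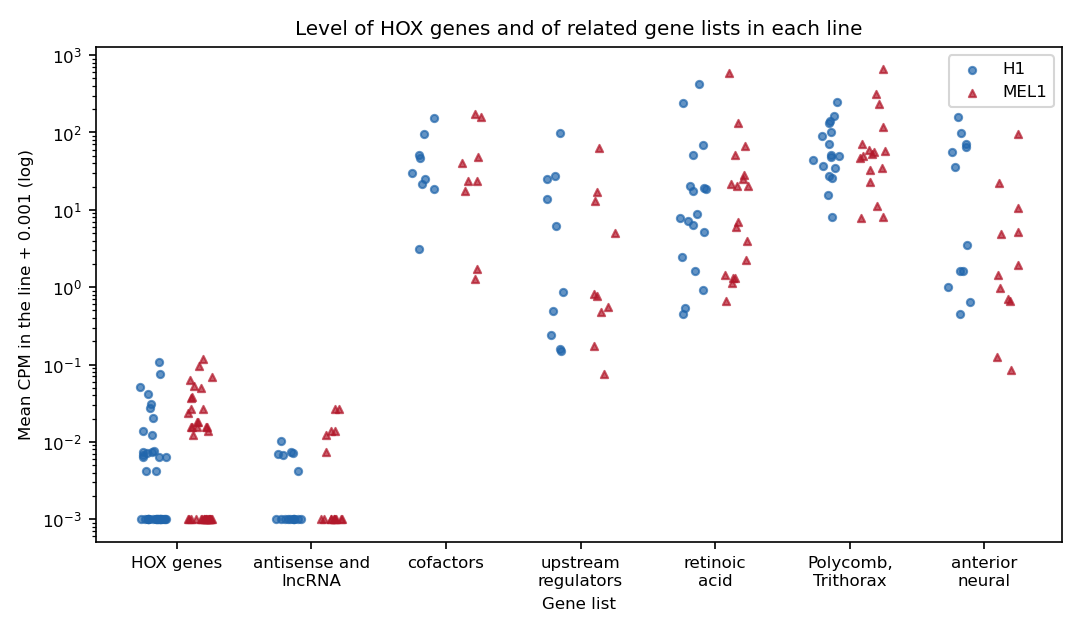
Mean CPM in H1 (circles) and MEL1 (triangles), plus 0.001 and on a log axis, of each HOX gene and of the genes of 6 related lists. HOX genes and their noncoding RNAs lie at the bottom in both lines, and all 9 cofactors and 17 Polycomb and Trithorax genes lie above 1 CPM in the mean over both lines.

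Genes of the HOX-free anterior neural territory were measured beside the HOX genes. Of 12 listed, 10 had a mean of at least 1 CPM, none was called over both lines, and 5 rose and 3 fell in the H1 average (background 2.23% and 4.93%). Between MEL1 and H1 2 were higher and 8 lower (background 23.0% and 26.2%), with a median log2 change of -2.63, against -0.09 over all tested genes. OTX2, a forebrain and midbrain regulator, had 161 ± 30.3 CPM (SD, n = 8) in H1 and 96.8 ± 23.0 CPM (SD, n = 4) in MEL1. RAX and SIX3, of the eye field, were lower in MEL1, with log2 fold changes of -7.50 and -6.59 (edgeR adjusted p 1.20e-08 and 3.01e-10). The MEL1 libraries also held more RNA of pluripotency markers, whose summed level over 7 genes was 2234 to 3910 CPM against 1155 to 1380 CPM in H1, and less of 6 neural progenitor markers, at 676 to 976 CPM against 1346 to 1924 CPM. Markers of the other listed cell types differed between the lines as well. In MEL1 against H1, 5 of 6 neural crest markers were called higher, with summed levels of 146 to 533 CPM against 79.5 to 159 CPM. All 4 tested of 6 epidermis and amnion markers were called higher, at 10.5 to 18.7 CPM against 0.768 to 2.28 CPM. Of 5 tested endoderm markers 3 were called higher, at 0.920 to 15.5 CPM against 0.520 to 1.33 CPM for all 6. All 6 neuron markers were called lower, at 131 to 173 CPM against 390 to 603 CPM. Of 5 endothelium markers 1 was called higher and 3 lower. Of 7 tested paraxial and lateral mesoderm markers 2 were called higher and 2 lower. Of 2 tested kidney or intermediate mesoderm markers 1 was called lower, at 0.613 to 2.32 CPM against 4.94 to 9.99 CPM for all 4. The part of these cell types in the HOX levels was not tested. HOX genes stayed near silence in both lines.

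The targeted gene and library quality were as follows. METTL14 had 29.8 and 43.8 CPM in H1 SCR, 8.89 to 17.6 CPM in the 6 H1 knockdown libraries, 49.9 CPM in MEL1 SCR and 5.94 to 8.95 CPM in the 3 MEL1 knockdown libraries. METTL14 was lower in each knockdown library than in each SCR library of its line, with a log2 change of -1.96 over both lines (standard error 0.23, edgeR adjusted p 0.00266). Libraries of 1 group differed by a chi-square per degree of freedom of 25.9 to 38.9, so none is a copy of another.

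One record inside the HOXC interval was abundant, in contrast to every HOX gene, and it was singled out after its values were seen. MIR196A2 (ENSG00000207924, chr12:53991738-53991847, plus strand) is the hairpin gene of a miRNA known to target HOX messages. The miRNA has a second hairpin gene in HOXB, MIR196A1, and a close relative in HOXA, MIR196B. The RefSeq hairpins (GRCh38.p14) are shown to tell the 3 records apart, with the 5p miRNA in capitals, followed by the mature miRNAs with the seed, bases 2 to 8, in capitals.
MIR196A2: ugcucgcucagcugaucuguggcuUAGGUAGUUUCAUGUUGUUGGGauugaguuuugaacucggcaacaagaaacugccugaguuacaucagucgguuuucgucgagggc
MIR196A1: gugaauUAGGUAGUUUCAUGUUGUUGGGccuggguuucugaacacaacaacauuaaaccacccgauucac
MIR196B: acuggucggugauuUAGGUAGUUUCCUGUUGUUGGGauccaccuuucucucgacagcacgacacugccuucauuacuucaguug
hsa-miR-196a-5p: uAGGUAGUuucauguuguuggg
hsa-miR-196b-5p: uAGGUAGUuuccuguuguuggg
Both mature miRNAs share 1 seed. The MIR196A2 record had 924 and 1599 counts with KD1 in H1, 913 and 706 with KD2, and 0 in both SCR and both KD3 libraries. In MEL1 the MIR196A2 record had 2154 and 1271 counts with KD1, 2501 with KD2 and 0 with SCR. All 7 KD1 and KD2 libraries were thus high, and the 5 SCR and KD3 libraries were at 0. Against the limit of 3 counts in a control library, its level was at least 300.1-fold higher with KD1 and at least 221-fold higher with KD2 in H1, and at least 171-fold and 306-fold higher in MEL1. Halving each bound, for the case that 2 counts stand for 1 fragment, gives between 85.5-fold and 153-fold. For MEL1 this is more cautious than the case needs, as halved library totals would leave its bounds unchanged. As the record was singled out for this pattern, no test is given. MIR196A1 and MIR196B, with nearly the same mature sequence, were at 0 in all libraries, as were MIR10A and MIR615, and MIR10B had 2 counts in 1 library. MIR196A2 lies within the annotated span of HOXC6 and between HOXC10 and HOXC9. HOXC6 and HOXC9 were at 0 in all libraries, and HOXC10 had at most 2 counts. The hairpins against METTL14 were delivered in lentiviral vectors, and whether these reads came from chromosome 12 or from a vector was not tested.

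**Figure D5:**
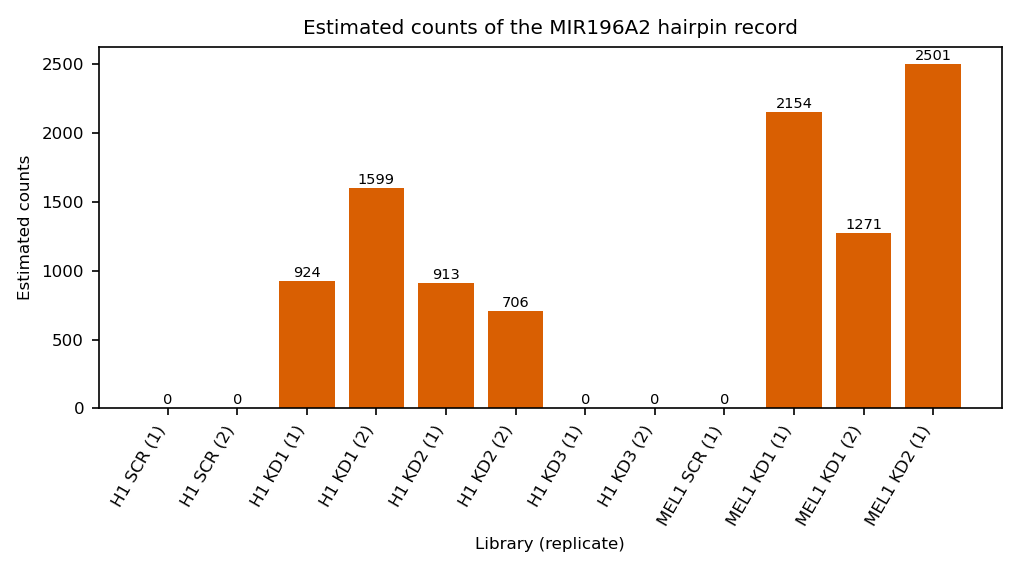
Estimated counts of the MIR196A2 hairpin record (bars, value above each) in each library, with KD1 and KD2 libraries coloured and SCR and KD3 libraries grey. The 7 KD1 and KD2 libraries hold 706 to 2501 counts and the other 5 hold 0.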

How the data were processed

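RNA from day 10 embryoid bodies was sequenced as TruSeq stranded total RNA, per the labels' protocols. The authors deposited 1 table of estimated counts per Ensembl gene; fastp and kallisto are named in the submitters' processing notes, with versions, annotation and genome build not given in the sources used here. Gene names came from a supplied table, in which 59243 of 65969 identifiers were found, and positions from GENCODE release 29.

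Estimated counts were rounded for testing with edgeR 4.0.16 (limma 3.58.1, R 4.3.3), with TMM scaling, filterByExpr over the 7 groups, and group means, or line plus knockdown for the comparison over both lines. Calls needed an adjusted p under 0.05 over all tested genes. DESeq2 1.42.0, other scalings and filters, removal of each library's GC and length trend, and leaving out libraries were alternatives. The depth was 15963241 counts in MEL1 SCR and 36609628 to 43508287 in the others. The scripts were tested on simulated data. Levels per length were CPM divided by transcript length, scaled like TPM.

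Members and lists were chosen with earlier results of these data known. Named genes were the 3 highest HOX genes by mean CPM per cluster, and from each list the 3 called genes with the largest change and the 2 highest genes; those printed are a selection of these, and others are said to be chosen after their values were seen. HOXB2, HOXB7, the CDX genes and the neighbours were chosen after their values were seen. One HOXA gene is counted in all totals and not reported here by name.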

Additional observations from a re-analysis of the deposited data

Results flagged for a closer look

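KDM6B and RARA, a retinoic acid receptor, stood apart in 1 MEL1 library. For KDM6B MEL1 KD2 had 83.3 CPM against 37.8 to 40.0 CPM in the other 3 MEL1 libraries, a gap of 0.951 of the range and past Dixon's critical value of 0.829 for 4 samples. For RARA it had 67.8 CPM against 11.7 to 16.5 CPM, a gap of 0.914 of the range. These 4 libraries carry 3 different hairpins, so they are not replicates of 1 group. Of 44 such checks, over the 4 MEL1 and the 6 H1 knockdown libraries, these 2 were past the critical value, and chance gives about 1 in 20.

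The edgeR test of a difference between the lines in the KD1 and KD2 effect called 4 of the listed regulators of HOX genes. They were 2 of the 10 genes that open the clusters and 2 of 18 retinoic acid genes, where 0.598% of all tested genes were called. None of the 17 Polycomb and Trithorax genes or the 9 cofactors was called. MEL1 SCR and MEL1 KD2 are 1 library each, so the spread is pooled over all groups and these libraries are assumed to vary like the others. CYP26A1 differed by a log2 of -2.43 (SE 0.43, adjusted p 0.0483), WNT3A by 3.60 (SE 0.47, adjusted p 0.0133), GBX2 by 1.59 (SE 0.25, adjusted p 0.0254) and RARA by 1.24 (SE 0.20, adjusted p 0.0304). WNT3A had 0.954 CPM in MEL1 SCR and 6.05 to 7.26 CPM in the MEL1 knockdown libraries. GBX2 had 12.3 CPM in MEL1 SCR and 11.9 to 14.3 CPM with knockdown, and CYP26A1 38.4 CPM and 8.05 to 34.5 CPM. All 4 rest on the single MEL1 SCR library, and for RARA the high MEL1 KD2 library enters too. No fit was possible without either. WNT3A kept its call in 16 of 16 other settings, GBX2 in 12, RARA in 10 and CYP26A1 in 8, with adjusted p up to 0.0404, 0.0708, 0.0914 and 0.121.

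The MIR196A2 hairpin record had at least 706 counts in each KD1 and KD2 library and 0 in each SCR and KD3 library.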

How the results depend on the processing

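No HOX gene was called in the 142 fits that tested any; in 13 more, with a mean of at least 1 CPM or H1 libraries by themselves, none was tested. The number of HOX genes at 0 in every library was 13, and 13 to 16 when a library was left out. The median summed HOX level of 0.464 CPM was 0.456 without MEL1 SCR, and the median posterior share of 56.3% was 55.6% without it. With HOX counts halved in the 11 libraries with mostly even low counts, but library totals kept, the median level was 0.232 CPM. These settings were chosen after seeing the data. The counts of called genes behind the background shares moved more. Without a filter on low counts they were 80 over both lines, 3256 in the H1 average, 4160 for KD1, 1745 for KD2, 2290 for KD3, 3384 between hairpins and 1369 for the difference between lines. DESeq2 gave 1246 over both lines, 2696 in the H1 average, 1149 for KD2, 1675 for KD3, 2224 between hairpins and 751 for the difference between lines. With the GC and length trend removed they were 2803 in the H1 average, 808 for KD2, 1575 for KD3, 1436 between hairpins and 283 for the difference between lines. Over both lines, a mean of at least 1 CPM gave 87 and group means 2748. The difference between lines gave 88 with median-of-ratios scaling, 97 with upper-quartile scaling and 95 with a mean of at least 1 CPM. Leaving out 1 library gave 11 to 280 over both lines, 123 to 1842 in the H1 average, 206 to 2766 for KD1, 64 to 400 for KD2, 108 to 881 for KD3, 154 to 1139 between hairpins, 11196 to 12093 for MEL1 against H1 and 34 to 148 for the difference between lines; the last 2 could not be fitted without MEL1 SCR or MEL1 KD2. The cause was not tested. Of 63 called results, for some genes of the lists and for the MIR196A2 record, 30 kept their call in every other setting. The other 33 lost it in at least 1. The MIR196A2 results are all among the 30. As that record was singled out for its pattern, its kept calls are no support for the pattern. WNT3A in MEL1 against H1 went from -0.94 to 0.26 with KD1 and KD2 groups only. No paired analysis was possible because the labels give no replicate numbers. Counts at or under 12 limit what can be seen of HOX changes.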
